A study of Homo sapiens with 6 samples.

Results

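The genes described here are 10 histone variant genes whose mRNA carries a poly(A) tail: the linker histone genes H1F0 and H1FX, the H3.3 genes H3F3A and H3F3B, the H2A.Z genes H2AFZ and H2AFV, the H2A genes H2AFX and H2AFJ, and the macroH2A genes H2AFY and H2AFY2. They were found by gene symbol in GENCODE release 29, with no threshold on their values, and they are 10 of the 58174 genes in the deposited table. The set was chosen with earlier results of these data known, so the counts of its genes called below are descriptions and no test. All 10 were among the 16321 genes with enough expression to be tested, that is, 3 or more samples had an FPKM of 0.5 or higher. FPKM is the number of fragments of a transcript scaled to its length in kilobases and to the sample's total of mapped fragments, so it is a level per length, and it was summed here over the annotated transcripts of each gene.

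The samples were SiHa cells, an established human cell line of cervical squamous cell carcinoma, collected 48 h after transfection with Lipofectamine 3000. In the OV-BRCA1 group (3 samples) the cells received the plasmid GV230-BRCA1, and in the NC group (3 samples) they received the plasmid GV230 without BRCA1, so both groups carried plasmid DNA and transfection reagent. The promoter that drives BRCA1 in the plasmid and the share of cells that took it up were not given in the sources used here. The study's methods call the samples of a group biological replicates, but no source says whether they were separate cultures, so p-values measure only the spread between these samples.

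Nucleosomes wrap DNA around core histones, and linker histone H1 binds where the DNA enters and leaves. Most histone mRNA is made in S phase from clustered genes and ends in a stem-loop in place of a poly(A) tail, whereas the variant genes mostly stand alone, make polyadenylated mRNA and are used throughout the cell cycle. The variants replace the common histones at chosen places, for example H2A.Z around promoters, H3.3 in transcribed genes, and H2A.X as the histone that is phosphorylated beside DNA breaks, where the BRCA1 protein is recruited.

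A search of the GENCODE transcripts for the histone stem-loop found it in H2AFX and in none of the other 9 genes, and in 32 of 71 clustered histone genes as annotated. A stricter pattern had missed H2AFX, and the one used was widened after that was seen, so the match is a description of this gene and no test. The match in H2AFX lies on the minus strand at chr11:119094898-119094913 (GRCh38), 53 bases after the coding region and 1044 bases before the end of transcript H2AFX-202, so that a short mRNA ending there would lie wholly inside the annotated one. It is shown with 5 bases on each side because H2AFX is the only one of the 10 genes in which it was found, with the stem-loop in capitals.
H2AFX: acaaaGGCCCTTTTAAGGGCCaccac

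RefSeq promoters (the 250 bases before the gene start, build GRCh38.p14) were matched for 9 of the 10 genes, and H1F0 had no entry in the table used. The matched genes had 13 promoters in all, since H3F3A has 4 and H2AFY has 2. Those shown belong to the H3.3 and H2A.Z genes, which encode the same or nearly the same protein and are compared as pairs, with the H3F3A promoters nearest to the starts of its main transcripts. Capitals mark the CCAAT motif, the TATA box TATAAA and the GC box GGGCGG on either strand. H3F3A promoter 1 ends 20 bases before the start of transcript H3F3A-204, and H3F3A promoter 4 ends 38 bases past the start of H3F3A-203, so its last bases are also transcribed.
H3F3A promoter 1, chr1:226061581-226061830, plus strand: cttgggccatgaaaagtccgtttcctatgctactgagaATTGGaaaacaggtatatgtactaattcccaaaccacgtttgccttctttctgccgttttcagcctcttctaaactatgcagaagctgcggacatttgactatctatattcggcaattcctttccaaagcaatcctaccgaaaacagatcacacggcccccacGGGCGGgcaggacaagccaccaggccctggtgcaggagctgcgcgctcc
H3F3A promoter 4, chr1:226062466-226062715, plus strand: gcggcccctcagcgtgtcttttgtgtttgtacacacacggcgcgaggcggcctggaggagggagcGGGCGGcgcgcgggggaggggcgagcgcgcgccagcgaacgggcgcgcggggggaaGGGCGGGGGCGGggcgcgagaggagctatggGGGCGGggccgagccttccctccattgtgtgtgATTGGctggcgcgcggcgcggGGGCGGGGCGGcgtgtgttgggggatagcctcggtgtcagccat
H3F3B, chr17:75779780-75780029, minus strand: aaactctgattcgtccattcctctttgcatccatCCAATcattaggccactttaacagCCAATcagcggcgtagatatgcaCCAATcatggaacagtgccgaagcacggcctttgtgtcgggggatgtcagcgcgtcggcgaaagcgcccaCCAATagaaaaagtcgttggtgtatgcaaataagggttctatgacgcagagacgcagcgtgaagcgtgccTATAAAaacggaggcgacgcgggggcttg
H2AFZ, chr4:99950276-99950525, minus strand: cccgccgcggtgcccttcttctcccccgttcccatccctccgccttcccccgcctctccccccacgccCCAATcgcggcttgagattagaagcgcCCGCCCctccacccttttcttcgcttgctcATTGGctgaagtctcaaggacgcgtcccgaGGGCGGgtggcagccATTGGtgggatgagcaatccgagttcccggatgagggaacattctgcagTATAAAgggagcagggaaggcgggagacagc
H2AFV, chr7:44848088-44848337, minus strand: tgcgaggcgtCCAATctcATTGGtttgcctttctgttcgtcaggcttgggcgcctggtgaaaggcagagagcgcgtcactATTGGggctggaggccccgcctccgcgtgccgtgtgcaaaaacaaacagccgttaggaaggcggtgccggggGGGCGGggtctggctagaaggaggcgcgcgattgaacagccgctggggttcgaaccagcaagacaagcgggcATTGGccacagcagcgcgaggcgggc

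The H3F3A promoters shown had GC contents of 50.4% and 75.2%, and H3F3A promoter 4 held 6 of the GC boxes. H3F3B, which encodes the same protein, had 4 CCAAT motifs and a TATA box and no GC box. Both H2A.Z genes had several CCAAT motifs (3 in H2AFZ and 4 in H2AFV), and H2AFZ also had a TATA box. CCAAT stood in 9 of the 13 promoters, from 7 genes, against 32% of the 35116 promoters in the RefSeq table. TATAAA stood in 4 of the 13 (10.7% of all) and GGGCGG in 7, from 4 genes (42.6% of all). Every H3F3A promoter was among these 7, and H3F3A promoters 2 and 3 overlap, so bases they share were counted in both. The cell cycle motif TTTGAA stood in 1, that of H2AFX (13.3% of all), and the cyclic AMP response motif TGACGTCA in 0 (1.65% of all). GGGCGG motifs may overlap each other, and a match describes letters only.

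BRCA1, the gene on the plasmid (ENSG00000012048), was at 35.7, 40.8 and 34.9 FPKM in the OV-BRCA1 samples and at 20.1, 14.9 and 21.7 FPKM in the NC samples. The groups did not overlap, and the log2 fold change was 0.95 (SE 0.14, limma with Benjamini-Hochberg adjustment over all genes, adjusted p = 0.00373). Transcripts from the plasmid and from the cells' own gene are summed in this value. The depth was estimated from the low FPKM values at 14.33 to 16.67 M fragments (M for mega) in the OV-BRCA1 samples and 16.05 to 19.98 M in the NC samples, and at that depth the 10 genes rested on about 320 (H2AFY2) to 21873 (H1F0) fragments in a sample, which covers counting error only. Of the 9 epithelial markers checked, 5 had a mean of at least 1 FPKM, with summed FPKM of 3207 to 3358 in the OV-BRCA1 samples and 3585 to 3709 in the NC samples. KRT7, KRT8, KRT17 and KRT18 made up nearly all of it, while KRT5, KRT19, CDH1 and TP63 were under 1 FPKM in every sample. Of the 6 markers tested, KRT17 was called lower (log2 fold change -0.48), and EPCAM (1.12), KRT18 (0.39) and KRT8 (0.20) were called higher. PTPRC of the leukocytes, VWF and KDR of the endothelium and LUM of the fibroblasts were listed at 0 in all samples, while CD14 was at 6.65 to 9.04 FPKM in the OV-BRCA1 samples and 17.8 to 20.4 FPKM in the NC samples. The fibroblast marker COL1A1 was at 3.03 to 3.56 FPKM and 5.96 to 6.61 FPKM and was called lower (log2 fold change -0.79), and the endothelial marker PECAM1 lay between 0.629 and 1.45 FPKM in all samples and was not called. Mitochondrial genes held 14.84 to 17.25% of the FPKM in the OV-BRCA1 samples and 21 to 23.2% in the NC samples, and the part of these differences in the results below was not tested.

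Of the 10 histone variant genes, 2 were called higher in the OV-BRCA1 group (H1F0 and H3F3B), 4 were called lower (H1FX, H3F3A, H2AFV and H2AFX) and 4 were not called (H2AFZ, H2AFJ, H2AFY and H2AFY2). The call was limma's moderated test on log2(FPKM + 1) with a Benjamini-Hochberg adjusted p under 0.05. With that call 16.4% of all genes tested were higher and 18.9% lower, 35.3% in either direction. Only H1F0 also passed the study's second criterion, a log2 fold change above 1, which 2.89% of all genes passed upwards. The study applied that criterion to counts tested with DESeq, while here it was applied to limma on log2(FPKM + 1), an unlike measure. No histone variant gene passed it downwards, where 1.1% of all genes did. With the most abundant transcript of each gene in place of the sum, H2AFV passed it downwards (log2 fold change -1.14, limma adjusted p = 0.000337). H3F3A did too (-2.01, limma adjusted p = 0.0142), represented by H3F3A-203 alone. The gene's other main transcript, H3F3A-204, was higher in the OV-BRCA1 group (log2 fold change 1.35, limma over all transcripts). The share of all genes passing downwards under this alternative was not computed, so 1.1% is no background for it. The 10 genes had a median log2 fold change of -0.33, and all genes tested one of -0.04. The 2 groups had no overlapping samples in 7 of the 10 genes and in 50.8% of all genes. In bulk RNA, fewer cells that express a gene and less RNA per cell cannot be told apart.

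**Figure D1:**
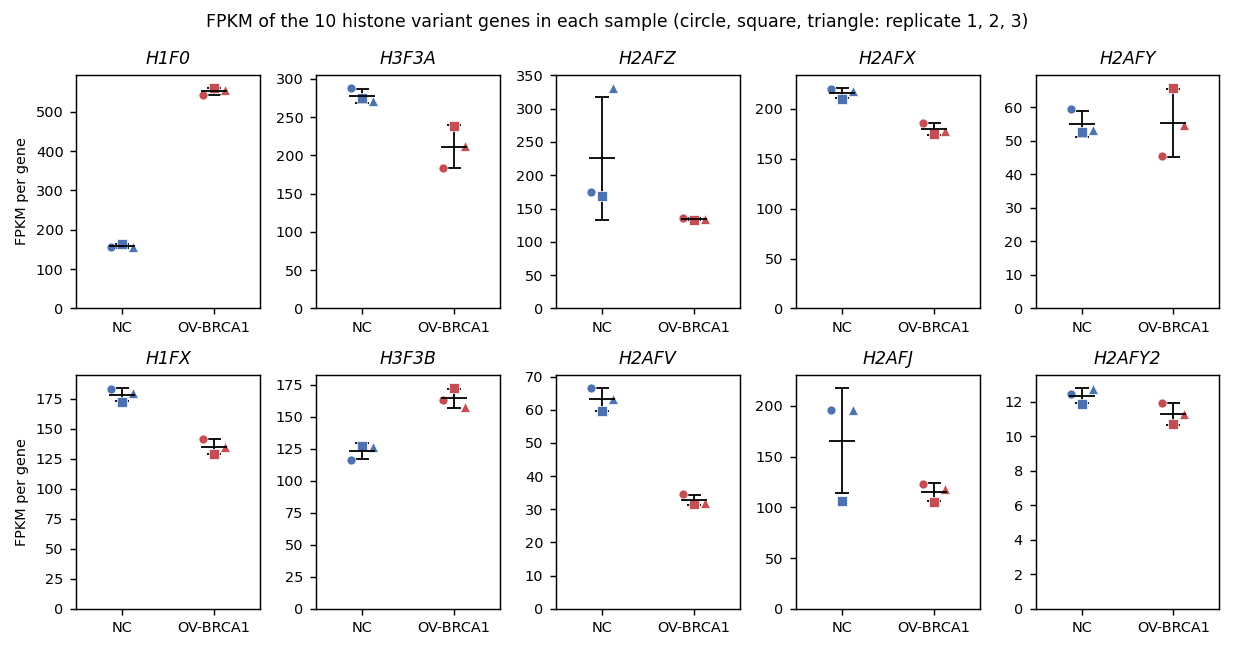
FPKM per gene (vertical axes, from 0, each with its own scale) of the 10 histone variant genes in the 3 NC and 3 OV-BRCA1 samples, with marker shapes for replicate number and bars for mean ± SD. H1F0 lay at 542 to 560 FPKM in the OV-BRCA1 samples against 156 to 164 in the NC samples, while 1 NC sample stood apart for H2AFZ (331) and 1 for H2AFJ (106).

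**Figure D2:**
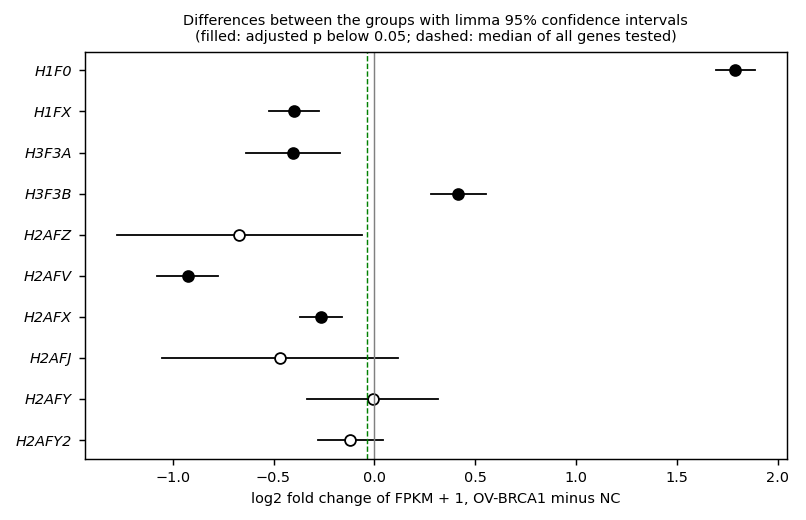
log2 fold change (OV-BRCA1 minus NC, on the log2(FPKM + 1) scale) of each gene with its limma 95% confidence interval, filled where the adjusted p was under 0.05, with a dashed line at the median of all genes tested (-0.04). H1F0 (1.79) and H3F3B (0.42) lie to the right of 0 and H1FX (-0.40), H3F3A (-0.40), H2AFV (-0.93) and H2AFX (-0.27) to the left, and the intervals of H2AFZ and H2AFJ are the widest.

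The order of the levels differed between the groups. Ranked by median FPKM, the NC group had H3F3A first (275.6), then H2AFX (218), H2AFJ (195.6), H1FX (180.1), H2AFZ (174.8), H1F0 (156.9), H3F3B (126.1), H2AFV (63.3), H2AFY (53.2) and H2AFY2 (12.4). Neighbours in this order did not overlap in 7 of 9 cases, the exceptions being H2AFJ with H1FX and H1FX with H2AFZ. Single samples broke the order: H2AFZ in NC replicate 3 (331.2 FPKM) was above every NC value of H3F3A, and H2AFJ in NC replicate 2 (105.8 FPKM) was below every NC value of H1FX, H2AFZ, H1F0 and H3F3B. The OV-BRCA1 group had H1F0 first (554.3), then H3F3A (211.7), H2AFX (177.4), H3F3B (162.8), H1FX (134.9), H2AFZ (134.8), H2AFJ (117.6), H2AFY (54.8), H2AFV (32) and H2AFY2 (11.3). Here the overlapping neighbours were H3F3A with H2AFX and H1FX with H2AFZ. Between the groups H1F0 moved from place 6 to place 1, and among all genes tested its mean level moved from place 355 to place 82. H1F0 held 10.8% ± 1.23 (SD, n = 3) of the summed FPKM of the 10 genes in the NC group and 34.7% ± 0.211 (n = 3) in the OV-BRCA1 group. The sum itself was 1476 ± 130 FPKM (n = 3) and 1591 ± 27.5 FPKM (n = 3), a difference within the spread of the NC samples (exact two-sided permutation test, p = 0.3, the smallest possible with 3 against 3 being 0.1).

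The linker histone genes moved in opposite directions, and H1F0 changed most among the 10 genes when FPKM was summed over transcripts. H1F0 (ENSG00000189060, chr22:37805093-37807436, GRCh38, a single exon) encodes a linker histone known to accumulate in slowly dividing and differentiated cells. It was at 542, 559.8 and 554.3 FPKM in the OV-BRCA1 samples and at 155.9, 164.3 and 156.9 FPKM in the NC samples, with means of 552 ± 9.12 and 159 ± 4.59 (SD, n = 3 each), a ratio of 3.47. Every OV-BRCA1 sample lay far above every NC sample, and the spread within a group was a few percent of its mean. The log2 fold change was 1.79 (SE 0.04, 95% confidence interval 1.69 to 1.89, limma adjusted p = 3.36e-06). A larger rise was called for 155 of the 2674 genes called higher, and for 27 of the 207 among them with a mean of at least 100 FPKM in either group.

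H1FX (ENSG00000184897) encodes the H1.X linker histone, which shares 29.8% of aligned residues with the H1F0 protein (194 and 213 residues). Its level was 141.5, 129 and 134.9 FPKM in the OV-BRCA1 samples and 182.8, 172.3 and 180.1 FPKM in the NC samples. The groups did not overlap, and H1FX fell to 0.758 of its NC mean (log2 fold change -0.40, SE 0.05, limma adjusted p = 0.002). Both genes have 1 annotated transcript each, so no other transcript of the gene can take part of their reads. H1F0 made up 47.1% ± 1.48 of the pair's summed FPKM in the NC group and 80.3% ± 0.991 in the OV-BRCA1 group (SD, n = 3 each). The log2 ratio of H1F0 to H1FX differed by 2.20 with no overlap, at the smallest p the exact two-sided permutation test allows (p = 0.1, 0.25 after Benjamini-Hochberg adjustment over 5 pairs). The pair's sum was 337 ± 1.12 FPKM in the NC group and 687 ± 3.19 FPKM in the OV-BRCA1 group (n = 3 each, no overlap, exact permutation p = 0.1).

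The clustered linker histone genes, named here after their values had been seen, were also called higher where tested. HIST1H1C, the most abundant of them, was at 932 ± 36 FPKM with OV-BRCA1 and 612 ± 11 FPKM with NC (n = 3 each, log2 fold change 0.60, limma adjusted p = 0.000201). HIST1H1D, HIST1H1E and HIST1H1B were at 10.5, 5.46 and 2.08 FPKM with OV-BRCA1 and 3.17, 2.39 and 0.576 FPKM with NC. Their main mRNA has no poly(A) tail, and 5 abundant RNAs without such a tail (RN7SL1, RN7SL2, RN7SK, RMRP and RPPH1) were all called higher in the OV-BRCA1 group, by 3.02 to 4.72 on the log2 scale. Whether the difference in these RNAs has a part in the values of the polyadenylated genes was not tested.

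**Figure D3:**
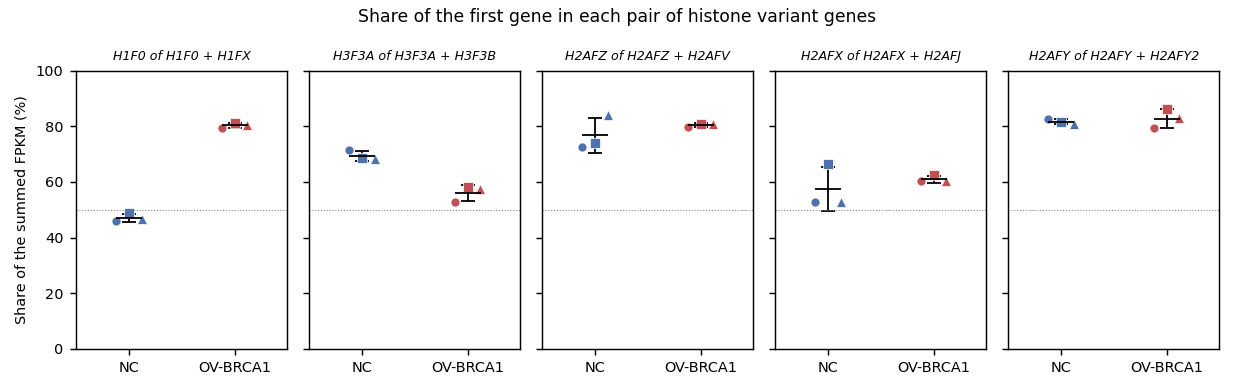
Share of the summed FPKM (vertical axis, percent) held by the first gene of each pair in every NC and OV-BRCA1 sample, with mean ± SD. The share of H1F0 was 46 to 48.8% in the NC samples and 79.3 to 81.3% in the OV-BRCA1 samples and that of H3F3A was 68.2 to 71.3% and 52.9 to 58.1%, while the groups overlapped in the other pairs.

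Of the H3.3 genes, H3F3A was called lower and H3F3B higher. They encode the same protein, with 0 of 136 residues different, although 88 of their 408 coding bases differ, so reads that cross such a base can be told apart. H3F3A (ENSG00000163041, chr1:226061851-226072001) was at 182.9, 238.8 and 211.7 FPKM in the OV-BRCA1 samples and 288.3, 275.6 and 270.6 FPKM in the NC samples. The groups did not overlap, with means of 211 ± 28 and 278 ± 9.15 (SD, n = 3 each), and OV-BRCA1 replicate 1 was lowest. The log2 fold change was -0.40 (SE 0.10, limma adjusted p = 0.0206). This call was lost, with adjusted p between 0.0543 and 0.0639, when OV-BRCA1 replicate 3, NC replicate 1 or NC replicate 2 was left out, and with no filter on low values (0.0568).

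H3F3B (ENSG00000132475, chr17:75776434-75785893) was at 162.8, 172.3 and 157.8 FPKM in the OV-BRCA1 samples and 115.8, 126.8 and 126.1 FPKM in the NC samples. The lowest OV-BRCA1 sample was above the highest NC sample, at 1.34 times the NC mean (log2 fold change 0.42, SE 0.06, limma adjusted p = 0.00261). Together the H3.3 genes gave 375 ± 33.1 FPKM with OV-BRCA1 and 401 ± 3.88 FPKM with NC (SD, n = 3 each), with overlapping samples (exact two-sided permutation test, p = 0.4). H3F3A held 69.3% ± 1.74 of that sum in the NC group and 56.1% ± 2.79 in the OV-BRCA1 group. The log2 ratio of H3F3A to H3F3B was lower by 0.83 with no overlap (exact permutation p = 0.1, adjusted 0.25 over 5 pairs).

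The level of H3F3A rested on a pair of transcripts that moved in opposite directions. H3F3A-203 (chr1:226062678-226071999) and H3F3A-204 (chr1:226061851-226071523) have the same coding sequence of 136 residues and together held 96.6 to 99.3% of the gene's FPKM in every sample. H3F3A-204 starts 827 bases further upstream, beside promoter 1 above, with an added first exon, and stops 476 bases earlier, with a last exon of 173 bases against 649. H3F3A-203 starts inside promoter 4, the one with 6 GC boxes.

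H3F3A-203 was at 36.6, 87.4 and 42.2 FPKM in the OV-BRCA1 samples and 217.8, 198.1 and 214.2 FPKM in the NC samples. It was lower in every OV-BRCA1 sample (log2 fold change -2.01, SE 0.33, limma over all transcripts, adjusted p = 0.0295), and OV-BRCA1 replicate 2 kept more of it than the others. H3F3A-204 was at 143.2, 149.8 and 167.7 FPKM in the OV-BRCA1 samples and 62.4, 68.1 and 49.6 FPKM in the NC samples. It was higher in every OV-BRCA1 sample (log2 fold change 1.35, SE 0.13, limma adjusted p = 0.00659). H3F3A-204 thus held 73.4% ± 9.26 of the gene's FPKM with OV-BRCA1 and 21.6% ± 3.19 with NC (SD, n = 3 each). H3F3A-202, a minor transcript, was at 1.56, 0.999 and 1.05 FPKM against 4.88, 8.22 and 5.68 FPKM, and was also called lower (limma adjusted p = 0.0148). The transcripts share their inner exons, and only reads in the first exons and in the end of the last exon tell them apart. The sum of both was 209 ± 28.7 FPKM with OV-BRCA1 and 270 ± 8.83 FPKM with NC. How the authors' software divided shared reads between them was not given in the sources used here.

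**Figure D4:**
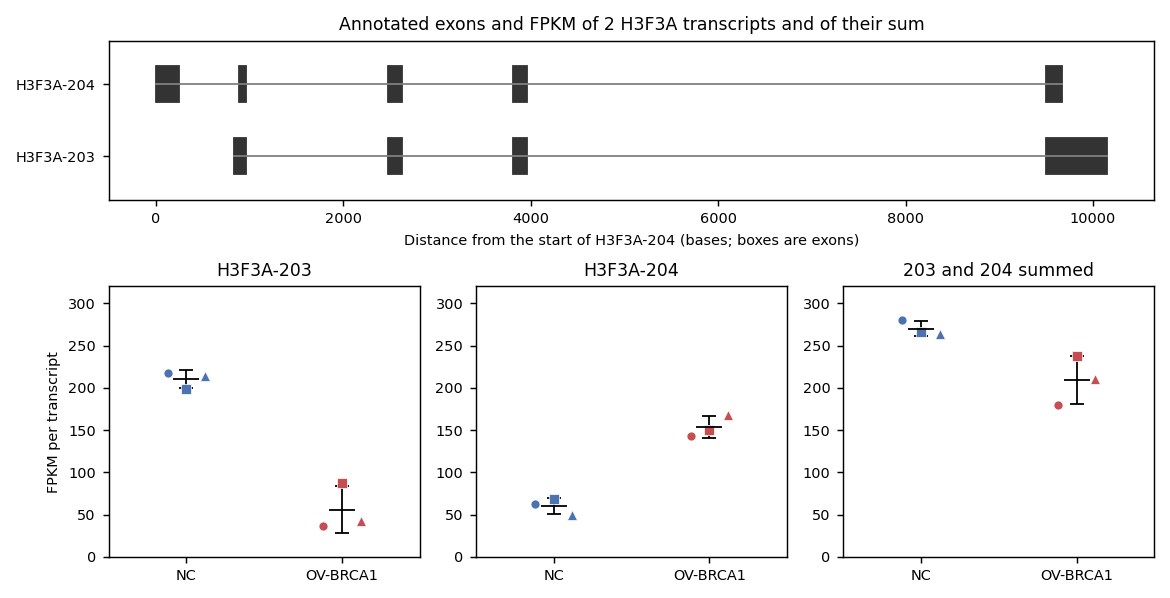
Top, exons (boxes) of H3F3A-203 and H3F3A-204 by distance in bases from the start of H3F3A-204; bottom, FPKM of each transcript and of their sum per sample, with mean ± SD. H3F3A-203 lay at 198 to 218 FPKM in the NC samples and at 36.6 to 87.4 in the OV-BRCA1 samples, and H3F3A-204 at 49.6 to 68.1 and at 143 to 168.

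H3F3A also has processed pseudogenes, copies without introns whose reads can be confused with it. H3F3AP4 was at 24.8 ± 2.28 FPKM with OV-BRCA1 and 45.6 ± 1.24 FPKM with NC (n = 3 each, log2 fold change -0.86, limma adjusted p = 0.000499), and H3F3AP6 at 7.53 ± 0.52 and 13.5 ± 0.444 FPKM (log2 fold change -0.77, limma adjusted p = 0.00059). Summed with its 6 pseudogenes H3F3A was at 243.5 ± 28.5 FPKM with OV-BRCA1 and 337.4 ± 8.67 FPKM with NC, again without overlap. H3F3BP1, a copy of H3F3B, was at 3.92 ± 0.506 and 5.75 ± 0.851 FPKM and was called lower (limma adjusted p = 0.0331), unlike H3F3B itself. Of the transcripts of H3F3B, the coding H3F3B-201 was higher by 0.46 on the log2 scale (limma adjusted p = 0.0153), and retained-intron transcripts held 29.6% ± 5.05 of the gene's FPKM with OV-BRCA1 and 30.2% ± 2.87 with NC. H3F3B overlaps UNK on the other strand by 1123 bases, and UNK was at 12.2 to 14.3 FPKM in all samples.

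Among the H2A.Z genes, H2AFV was called lower and H2AFZ was not called. Their proteins, H2A.Z.2 and H2A.Z.1, differ in 3 of 128 residues. H2AFV (ENSG00000105968, chr7:44826791-44848083) was at 34.6, 31.7 and 32 FPKM in the OV-BRCA1 samples and at 66.5, 59.7 and 63.3 FPKM in the NC samples. The groups were far apart, and H2AFV fell to 0.519 of its NC mean (log2 fold change -0.93, SE 0.06, 95% confidence interval -1.08 to -0.77, limma adjusted p = 0.000172). A larger fall was called for 248 of the 3090 genes called lower.

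H2AFV has several coding transcripts with different last exons. The most abundant, H2AFV-201, ends in a distal last exon of 3373 bases, encodes 114 residues, and was at 12.5, 11.9 and 12.8 FPKM in the OV-BRCA1 samples and 27.7, 28 and 29.6 FPKM in the NC samples. It was lower in every OV-BRCA1 sample (log2 fold change -1.14, limma adjusted p = 0.00236). H2AFV-202, which encodes the full 128 residues, was at 13.1, 6.22 and 6.74 FPKM against 22.1, 15.8 and 14.2 FPKM, and its difference did not pass the test (log2 fold change -0.97, limma adjusted p = 0.146). Transcripts with the distal last exon held 45.6% ± 3.1 of the gene's FPKM in the NC group and 38.6% ± 1.99 in the OV-BRCA1 group (SD, n = 3 each), with no overlap (exact two-sided permutation test, p = 0.1).

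H2AFZ (ENSG00000164032, chr4:99948086-99950388) was at 135.8, 132.2 and 134.8 FPKM in the OV-BRCA1 samples and at 174.8, 169.4 and 331.2 FPKM in the NC samples. All OV-BRCA1 samples lay below all NC samples, but NC replicate 3 was far above the other NC samples. With this sample the log2 fold change was -0.67 (SE 0.25, 95% confidence interval -1.28 to -0.06, limma adjusted p = 0.0844), and without it -0.36 (limma adjusted p = 0.00624). In NC replicate 3 the retained-intron transcript H2AFZ-203 was at 30.2 FPKM, against 2.2 to 3.63 FPKM in the other samples, and retained-intron transcripts held 11.4% of the gene's FPKM there against 4.14 to 5.84% elsewhere. The coding H2AFZ-201 was also highest there (292.1 FPKM, against 159.5 and 167.1 FPKM in the other NC samples). NC replicate 3 was more than 1.5-fold above both other NC samples in 13 of 1445 genes with a mean of at least 50 FPKM (0.9%). The log2 ratio of H2AFZ to H2AFV was 1.97, 2.06 and 2.07 in the OV-BRCA1 samples and 1.39, 1.51 and 2.39 in the NC samples, a difference of 0.27 (exact two-sided permutation test, p = 0.4, adjusted 0.5). The groups overlapped through NC replicate 3 alone. The difference was 0.59 without that sample, 0.089 without NC replicate 1, 0.14 without NC replicate 2 and 0.57 with the most abundant transcript of each gene in place of the sum.

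H2AFX, the gene of H2A.X, was called lower, by the smallest of the called differences. It was at 186.1, 175 and 177.4 FPKM in the OV-BRCA1 samples and 219.7, 210 and 218 FPKM in the NC samples (ENSG00000188486, chr11:119093854-119095467). The groups did not overlap, at 0.831 of the NC mean (log2 fold change -0.27, SE 0.04, 95% confidence interval -0.37 to -0.16, limma adjusted p = 0.00524). The single-exon transcript H2AFX-202 held 86.1 to 88.6% of its FPKM in every sample, and taken alone over all transcripts it did not pass the test (log2 fold change -0.25, limma adjusted p = 0.0558). Since the stem-loop shown above lies inside both annotated transcripts, mRNA ending at the stem-loop and polyadenylated mRNA cannot be told apart in these values.

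H2AFJ (ENSG00000246705) encodes H2A.J, which has 129 residues and matches H2A.X in 82.5% of aligned residues. It was at 123, 105.4 and 117.6 FPKM in the OV-BRCA1 samples and at 195.6, 105.8 and 195.8 FPKM in the NC samples. NC replicate 2 fell among the OV-BRCA1 samples while the other NC samples were far above them. The log2 fold change was -0.47 (SE 0.24, limma adjusted p = 0.182) and, without NC replicate 2, -0.76 (limma adjusted p = 0.00288). In NC replicate 2 the coding single-exon transcript H2AFJ-203 held 66.5% of the gene's FPKM, against 96.3 to 97.8% in the other samples. H2AFJ-201, a spliced transcript annotated for nonsense-mediated decay, was at 26.2 FPKM there and listed at 0 in the other samples. NC replicate 2 was more than 1.5-fold below both other NC samples in 16 of the 1445 genes with a mean of at least 50 FPKM (1.11%). The log2 ratio of H2AFX to H2AFJ was 0.60, 0.73 and 0.59 in the OV-BRCA1 samples and 0.17, 0.99 and 0.16 in the NC samples, a difference of 0.20 (exact two-sided permutation test, p = 0.4, adjusted 0.5). The groups overlapped through NC replicate 2 alone. The difference was 0.48 without that sample, 0.069 without NC replicate 1, 0.062 without NC replicate 3 and 0.045 with the most abundant transcript of each gene.

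The macroH2A genes, whose proteins carry a large macro domain behind the histone part, were not called. H2AFY was at 45.5, 65.8 and 54.8 FPKM in the OV-BRCA1 samples and 59.6, 52.6 and 53.2 FPKM in the NC samples. The OV-BRCA1 samples lay on both sides of the NC samples, with a log2 fold change of -0.01 and a 95% confidence interval of -0.33 to 0.32 (limma adjusted p = 0.973). H2AFY2, with 67.7% of residues in common, was at 11.9, 10.7 and 11.3 FPKM against 12.4, 11.9 and 12.7 FPKM. Its groups overlapped by a small margin (log2 fold change -0.12, 95% confidence interval -0.28 to 0.04, limma adjusted p = 0.214). H2AFY2 overlaps AIFM2 on the other strand over 14058 bases, and AIFM2 was at 9.43 to 12.8 FPKM.

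H2AFY makes splice forms that differ in 1 exon inside the macro domain, of 91 or 100 bases. Among transcripts with either, the 91-base exon held 20.3, 23.8 and 31.8% in the OV-BRCA1 samples and 28.9, 33.7 and 26.4% in the NC samples. The samples overlapped (means 25.3% ± 5.9 and 29.6% ± 3.71, SD, n = 3 each, exact two-sided permutation test, p = 0.4). Across the 10 genes, 48 transcripts were tested one by one, of which 3 were called higher (H1F0-201, H3F3A-204 and H3F3B-201) and 4 lower (H1FX-201, H2AFV-201, H3F3A-202 and H3F3A-203). Over all transcripts 2.85% were called higher and 2.63% lower.

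Other histone variant genes were mostly at or near 0 FPKM. Of 13 listed, 2 passed the filter. CENPA, the centromeric H3 variant, was at 11.9, 11.7 and 13.5 FPKM in the OV-BRCA1 samples and 21, 18.5 and 18 FPKM in the NC samples, and was called lower (log2 fold change -0.59, SE 0.09, limma adjusted p = 0.00325). HIST1H1T, the testis linker histone, which lies in the histone cluster, was at 2.16, 1.73 and 1.85 FPKM against 0.195, 0.183 and 0.681 FPKM and was called higher (log2 fold change 1.12, SE 0.16, limma adjusted p = 0.00305). H3F3C reached 0.398 FPKM at most, and H2AFB1, H2AFB2, H2AFB3 and H1FNT stayed under 0.2 FPKM in every sample. The other 6 were listed at 0 in all samples.

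The chaperones that place H3.3 were called about as often as genes in general, of which 16.4% were called higher and 18.9% lower (35.3% in either direction). Of 8 genes for H3.3 deposition, 2 rose, 1 fell and 5 did not pass the test (median log2 fold change -0.11). UBN1, a subunit of the HIRA complex, rose from 8.45 ± 0.732 to 15.8 ± 0.578 FPKM (n = 3 each, log2 fold change 0.83, limma adjusted p = 0.000584), and ASF1A, which hands H3 and H4 to it, by 0.41 (limma adjusted p = 0.00998). ATRX, which with DAXX deposits H3.3 in heterochromatin, fell by 0.51 on the log2 scale (limma adjusted p = 0.00729). Of 6 chaperones of H3 and H4 in replication, 0 rose and 2 fell, RBBP7 (log2 fold change -0.31, limma adjusted p = 0.0303) and ASF1B (-0.22, limma adjusted p = 0.0411), with a median of -0.10. With 3 of 8 and 2 of 6 genes called, both lists were near the share over all genes.

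Among 25 genes of the complexes that exchange H2A.Z, 3 rose, 7 fell and 15 did not pass the test (median log2 fold change -0.08), so that 10 of 25 were called, near the 35.3% of all tested genes. BRD8, a bromodomain subunit of the TIP60 complex, fell from 51.3 ± 2.39 to 27.8 ± 1.17 FPKM (n = 3 each, log2 fold change -0.86, limma adjusted p = 0.000175), and DMAP1, shared by the TIP60 and SRCAP complexes, by 0.67 (limma adjusted p = 0.00482). The ATPase RUVBL1 rose by 0.25 and YEATS4 by 0.34 on the log2 scale (limma adjusted p = 0.0156 and 0.0299). Of 13 genes of H2A.X signalling, 1 rose and 0 fell, with a median of -0.03. The one called was NBN, a subunit of the MRN complex that binds DNA ends, at 8.47 ± 1.13 FPKM against 5.96 ± 0.859 FPKM (limma adjusted p = 0.0413). Of 5 genes that splice or bind macroH2A1, 0 rose and 1 fell, the helicase DDX17 (log2 fold change -0.32, limma adjusted p = 0.0224), with a median of 0.03. Of 5 chaperones of H2A with H2B or of linker histones, 1 rose, NPM1 (log2 fold change 0.24, limma adjusted p = 0.0262), and 0 fell, with a median of 0.24.

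Most genes of the G2 and M phase list were called lower, and most clustered histone genes were called higher. Of 51 genes of G2 and M phase, 1 rose, 30 fell and 20 did not pass the test, with a median log2 fold change of -0.45. Of all genes tested, 16.4% were called higher and 18.9% lower. TOP2A, the mitotic topoisomerase, fell from 70.3 ± 0.315 to 39 ± 1.11 FPKM (n = 3 each, log2 fold change -0.83, limma adjusted p = 6.76e-05), CDCA3 by 1.20 on the log2 scale (limma adjusted p = 0.000117), and CKS1B rose by 0.41 (limma adjusted p = 0.000992). Of 42 genes of S phase, 11 rose, 5 fell and 26 did not pass the test, with a median of 0.08, so that the share called was near that of all genes. CDC6 and DTL rose by 0.55 and 0.69 (limma adjusted p = 0.000524 and 0.00134), and PCNA and E2F8 fell by 0.52 and 0.46 (limma adjusted p = 0.00762 and 0.0143). Of 71 clustered histone genes, 57 were tested, of which 48 rose and 0 fell, with a median of 0.94 against -0.33 for the 10 variant genes. Near-identical copies in the clusters share reads. H2AFZ is known as a gene of proliferating cells, and the part of the cell cycle genes in the results above was not tested.

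**Figure D5:**
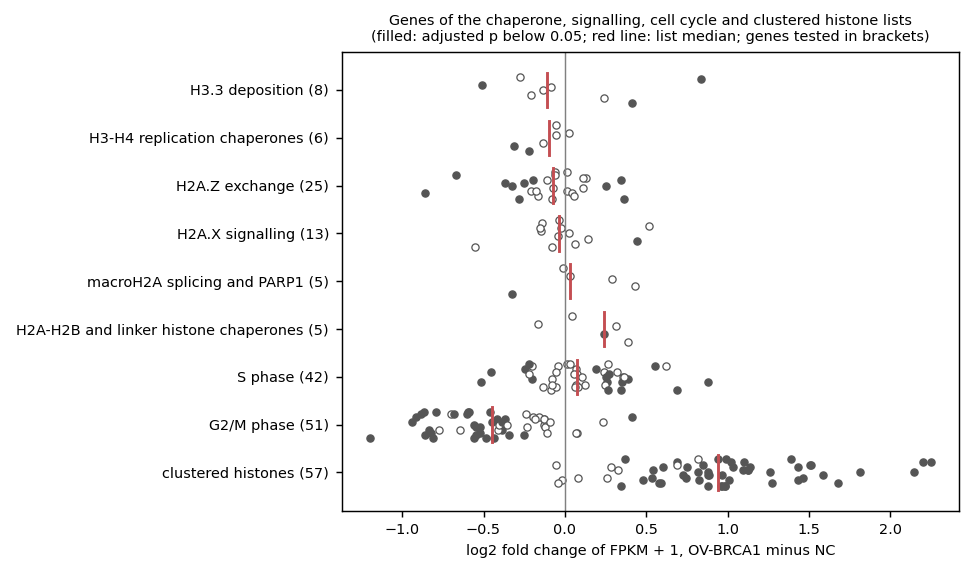
log2 fold change (OV-BRCA1 minus NC, log2(FPKM + 1) scale) of each gene tested in 9 lists, filled where the adjusted p was under 0.05, with a red line at the list's median. The medians of the chaperone lists lie between -0.11 and 0.24, that of the G2 and M phase list at -0.45 and that of the clustered histone genes at 0.94.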

How the data were processed

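mRNA of 6 samples (3 OV-BRCA1, 3 NC, grouped by their labels) was purified with capture beads and sequenced. The authors filtered the reads for quality and adapter sequence and deposited FPKM per transcript for 199167 transcripts of 58174 genes. The submitters' processing notes name FastQC, HISAT2 and hg38. The quantification tool, the annotation and the use of strand were not given in the sources used here. The authors tested counts with DESeq, which cannot be repeated on FPKM.

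Genes were named by GENCODE release 29, in which 198868 transcripts were found. The FPKM of a gene was the sum over its transcripts. Genes that reached an FPKM of 0.5 in 3 or more samples were tested with limma 3.58.1 (R 4.3.3; trend, not robust) on log2(FPKM + 1) with Benjamini-Hochberg adjustment over all genes tested. Fold changes are on this scale and understate the change of low genes. Single values were compared by exact two-sided permutation over samples, which cannot go below p = 0.1 with 3 against 3. The test was tried on simulated data with 16321 genes, where it called 81 of 100 genes changed by 1 on the log2 scale, 39 of 100 changed by 0.5, and 10 unchanged genes. Only these genes were changed there, none of them with a low mean level, while 35.3% of genes were called in the data. The shares recovered therefore do not measure the power of the test in these data. Depth was estimated from the steps of low FPKM values in 14223 genes with 1 transcript. Since only 34.9 to 38.9% of these values came within 0.1 of a whole fragment, no counts were recovered and no count test was run.

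Promoters came from RefSeq (GRCh38.p14), and the stem-loop search used GENCODE transcripts and a pattern with degenerate letters that was relaxed after a stricter one had missed H2AFX. Python 3.11.15 with numpy 2.4.6, pandas 2.3.3, Biopython 1.88 and matplotlib 3.10.9 was used for the rest.

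The named genes were the 10 variant genes, BRCA1, the other variant genes with any FPKM, and from each chaperone, exchange, signalling and cell cycle list the called genes with the smallest adjusted p, at most 2 in each direction and with a mean of at least 1 FPKM in the lists other than cell cycle. Cell type markers came from a list written with the design, and those given with values were picked from it after the values had been seen. RNAs without a poly(A) tail are given by their range. The members and lists were chosen with earlier results of these data known. The pseudogenes, overlapping genes, clustered linker histone genes and single transcripts were added after the values had been seen. The alternatives tried were a pseudocount of 0.1, no filter and a stricter filter on low values (FPKM of at least 1 in all 6 samples), the replicate number as a block, median-of-ratios scaling, scaling to nuclear protein-coding genes, the most abundant transcript of each gene, and leaving out each sample.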

Additional observations from a re-analysis of the deposited data

How the results depend on the processing

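H1F0 and H3F3B were called higher, and H1FX, H2AFV and H2AFX lower, under every alternative run at the level of genes. H3F3A was called lower except with no filter on low values and without OV-BRCA1 replicate 3, NC replicate 1 or NC replicate 2. H2AFZ was called only without NC replicate 3 and H2AFJ only without NC replicate 2. The number of variant genes called lower ranged from 3 to 5 when each sample was left out in turn, and their median log2 fold change over all alternatives from -0.37 to -0.27. With the most abundant transcript of each gene in place of the sum, 3291 genes were called in place of 5764. H3F3A was then represented by H3F3A-203 alone. Its log2 fold change was -2.01, and the log2 ratio of H3F3A to H3F3B differed by -2.49 in place of -0.83. The log2 ratio of H2AFY to H2AFY2 turned to -0.050 without OV-BRCA1 replicate 2, from 0.12, and ranged from -0.050 to 0.30 over the samples left out. The causes were not tested.

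Samples with the same replicate number did not deviate together (correlations of -0.024, 0.025 and 0.014), so the number was taken as a name. With the replicate block, 4595 genes were called, the variant genes called were again 2 higher and 4 lower, and the adjusted p of H3F3A was 0.0467. Median-of-ratios scaling moved the median log2 fold change of all genes from -0.04 to -0.0078 and scaling to nuclear protein-coding genes to -0.07, and neither turned a call of a variant gene. The deposited values carry no counts, so the depth behind each level is an estimate, and 48 h was the only time measured.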
